A study of Gallus gallus with 28 samples.

Results

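The genes described here are those of 8 solute carrier families that hold most plasma membrane amino acid transporters (SLC1, SLC3, SLC6, SLC7, SLC16, SLC36, SLC38 and SLC43). They were taken by name from a table of 17684 genes and other features measured in chicken basilar papilla (the sensory epithelium with which birds hear), and 55 rows carried such a name. SLC7A14 was left out by the naming rule. The name SLC7A6OS was also taken in, although that gene, a neighbour of SLC7A6, encodes no transporter. Not every member moves amino acids: some SLC16 carriers move monocarboxylates such as lactate, and SLC6A4 and SLC6A2 take up serotonin and noradrenaline.

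Cells import essential amino acids, glutamine, cystine and glycine through such carriers, which feed protein synthesis, glutathione and the nutrient sensing kinase mTORC1. In mammalian cells, a shortage of amino acids or stress of the endoplasmic reticulum raises the transcription factor ATF4, which in turn raises several of these transporters together with enzymes that make serine and asparagine. In the mammalian cochlea, supporting cells carry the glutamate transporter SLC1A3, which clears the transmitter that hair cells release.

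The papillae were exposed to streptomycin (an aminoglycoside, toxic to hair cells) or left untreated, and RNA was sequenced at 8 times from 0 to 168 h. Per the labels, streptomycin was given to dissected papillae for 24 h before recovery, and the controls had no treatment. The labels do not say from which event time was counted, so whether 0 h follows the 24 h of streptomycin directly is not known. They also do not say how control papillae were kept, nor whether each sample was a different animal or culture, so p-values measure the spread between these samples only. Controls had 2 samples at 0, 24, 48, 144 and 168 h and 1 sample at 72, 96 and 120 h (13 in all), and treated papillae had 2 samples at each time but 96 h, with 1 (15 in all).

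Libraries held 16.48 to 38.17 M alignments. The summed level of 16 hair cell markers was 532 to 1102 RPKM (reads scaled to gene length and library size) in the 6 control samples at 0 to 48 h and 41.1 to 85.6 in the 6 treated ones, and that of 11 supporting cell markers 994 to 2185 and 1274 to 2121, so both labelled cell types of the epithelium were present in controls. The summed level of 8 neuron markers was 38.2 to 64.1 RPKM in these controls and 12.8 to 18.8 in treated samples, and that of 9 markers of ion-transporting duct epithelium 320 to 483 and 208 to 354. In these bulk samples, fewer cells of a type and less RNA per cell cannot be told apart. Leukocyte markers (12 in the table) summed to 62 to 171 RPKM in controls at 0 to 48 h and 312 to 415 at 120 to 168 h, against 45.8 to 83.8 and 127 to 302 in treated samples, and the part that any of these cell types had in the results below was not tested.

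Most members were expressed in the papilla. Averaged over the 28 samples, 19 of the 55 had at least 10 RPKM, 18 had 1 to 10 RPKM and 18 had less than 1 RPKM. The highest means were those of SLC16A3, the lactate exporter MCT4 (123 RPKM), SLC38A2, a sodium-coupled carrier of glutamine and other neutral amino acids (120 RPKM), and SLC7A5, the light chain of the exchanger LAT1 for leucine and other large neutral amino acids (118 RPKM). These means lay within the spread of one another, since SLC16A3 ranged from 62.3 to 167 RPKM over the samples, SLC38A2 from 78.2 to 230 and SLC7A5 from 21.3 to 251. Next came SLC1A3 (48.9 RPKM), the taurine transporter SLC6A6 (37.8 RPKM), SLC38A10 (35.9 RPKM), the alanine, serine and cysteine transporter SLC1A4 (34 RPKM), and the glutamine carrier SLC38A1 (32 RPKM), also with overlapping ranges.

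The filter of at least 1 RPKM in at least 2 samples was passed by 41 of the 55 members, and of all features 69% passed it. Among the 14 members below it were the glycine transporter SLC6A5 of inhibitory neurons, the proline transporter SLC6A7, the kidney and gut transporter SLC6A19, and the cystine transporter subunit SLC7A9. By family, 5 of 6 SLC1 members were tested, 5 of 11 in SLC6, 8 of 11 in SLC7, 11 of 13 in SLC16, 8 of 10 in SLC38, both SLC43 members, and the single SLC3 and SLC36 members.

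**Figure D1:**
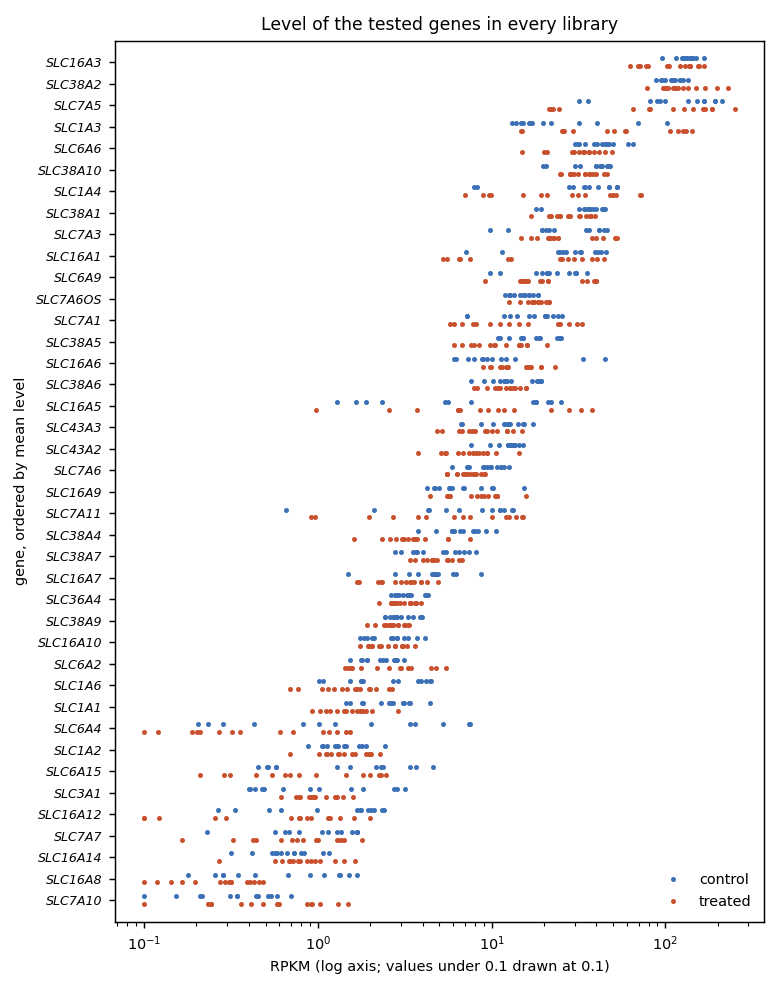
Level of 40 of the 41 tested genes in every library in RPKM (log axis, values under 0.1 drawn at 0.1), ordered by the mean over all samples, with 13 control points (blue) and 15 treated points (red) per gene. SLC16A3, SLC38A2 and SLC7A5 stood highest, and the points of SLC7A5 ran from 21.3 to 251 RPKM.

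Each difference below is a fitted log2 value ± its standard error, computed from log2(RPKM + 1), and the fold of a gene with a low level is understated. A gene is said to pass, rise, fall or differ where limma's Benjamini-Hochberg adjusted p over the 12195 features tested was under 0.05. At 0 to 48 h, 5 of the 41 members were higher and 18 lower in treated than in control samples, where 51.1% of all features passed (27.6% higher and 23.5% lower). The median member differed by -0.24, and the median feature by 0.03. Over all times 3 members were higher and 17 lower (41.9% of features passed, 20.2% higher and 21.7% lower), with medians of -0.18 and 0.01. At 120 to 168 h 3 were higher and 8 lower (19.4% of features passed, 4.31% higher and 15.1% lower), with medians of -0.12 and -0.07. The shares of members that passed in either direction, 56.1%, 48.8% and 26.8% in that order, were not far above those of all features. By direction they differed more: 43.9%, 41.5% and 19.5% of members were lower, and 12.2%, 7.32% and 7.32% higher.

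In control papillae, several amino acid importers rose within the first day. SLC7A5 stood at 31.9 and 35.9 RPKM in the 2 control samples at 0 h and at 135 and 81.9 at 24 h. SLC1A4 went from 7.92 and 8.19 to 47.6 and 27.9 RPKM, and SLC7A11, which exchanges cystine for glutamate, from 0.657 and 2.09 to 8.79 and 6.53 RPKM. In all 3 genes both 24 h samples lay above both 0 h samples, and the fitted changes were 1.61 ± 0.26 (limma, adjusted p = 0.000403), 2.05 ± 0.30 (adjusted p = 0.000146) and 1.92 ± 0.34 (adjusted p = 0.000763).

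The cationic amino acid transporters took the same direction in controls. SLC7A1, the widely expressed importer of arginine and lysine, had 7.2 and 7.19 RPKM at 0 h and 17.6 and 16.3 RPKM at 24 h, and SLC7A3, a second such importer, 9.83 and 12.4 and then 22.8 and 19.4 RPKM. Their changes were 1.13 ± 0.23 (limma, adjusted p = 0.00176) and 0.87 ± 0.24 (adjusted p = 0.0134). SLC38A1 rose from 17.9 and 19.3 to 44.9 and 44.2 RPKM, a change of 1.22 ± 0.17 (adjusted p = 0.000104). The glycine transporter SLC6A9 rose from 9.76 and 11.2 to 21.5 and 20.7 RPKM, a change of 0.95 ± 0.24 (adjusted p = 0.00747), and SLC6A6 from 40.2 and 31.5 to 65.5 and 60.7 RPKM, a change of 0.81 ± 0.20 (adjusted p = 0.00838). For each of these genes the lower 24 h sample stood above the higher 0 h sample.

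In all, 13 of the 41 members rose and 6 fell in controls from 0 to 24 h, where 25.9% of features passed (14.4% upward and 11.5% downward), and the medians were 0.22 for members and 0.00 for features. Beside the 8 named so far, those that rose were the lactate transporter SLC16A1 (1.34 ± 0.33, limma, adjusted p = 0.00768), SLC16A9, SLC43A3, the heavy chain SLC3A1 of a cystine and dibasic amino acid exchanger, and SLC7A6, which exchanges cationic for neutral amino acids. Those that fell included SLC6A4, SLC16A6, SLC1A3, SLC38A10 and SLC16A8. Over the same day 9 of 16 hair cell markers and 6 of 11 supporting cell markers fell in controls, 3 of 7 glial markers rose, and no leukocyte marker of 11 passed in limma.

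With only 2 samples on each side, single libraries carried part of these calls, and 9 of the 19 were lost when 1 of the 4 libraries was left out. The rise of SLC16A1 was then 1.02 (limma, adjusted p = 0.104) without the first 0 h sample, that of SLC6A9 0.86 (adjusted p = 0.0673) without the same sample, that of SLC7A3 0.71 (adjusted p = 0.123) without it and 0.76 (adjusted p = 0.0898) without the first 24 h sample. SLC6A6 gave 0.64 (adjusted p = 0.0945) without the second 0 h sample and 0.75 (adjusted p = 0.0528) without the first 24 h sample. SLC16A9, SLC43A3, SLC3A1, SLC7A6 and SLC16A8 also lost their calls in at least 1 such fit. SLC7A5, SLC1A4, SLC7A11, SLC7A1 and SLC38A1 passed whichever library was left out.

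**Figure D2:**
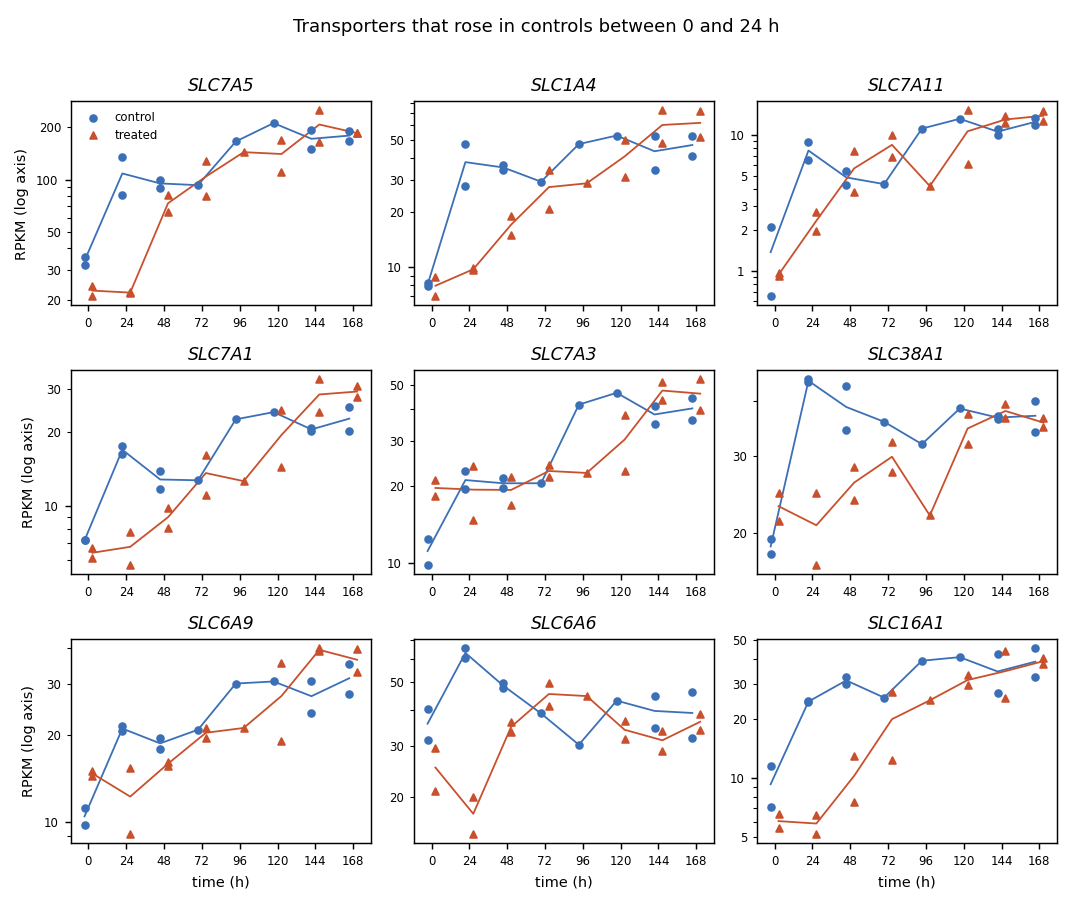
Time courses of 9 transporters that rose in controls between 0 and 24 h, in RPKM on a log axis that does not start at 0, against time in h. Points are single samples (control blue circles, treated red triangles) and lines join the means. For SLC7A5 the 24 h controls stood at 135 and 81.9 RPKM and the treated samples at 22.4 and 22.

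In treated papillae no member passed over the same day. SLC7A5 stood at 21.3 and 24.3 RPKM in the 2 treated samples at 0 h and at 22.4 and 22 RPKM at 24 h, SLC1A4 at 8.88 and 7 and then 9.87 and 9.68 RPKM, and SLC7A1 at 6.71 and 6.09 and then 5.72 and 7.82 RPKM. For SLC7A5 and SLC7A1 the treated samples of the 2 times overlapped, and for SLC1A4 both 24 h samples stood above both 0 h samples. The fitted changes were -0.03 ± 0.26, 0.28 ± 0.30 and 0.06 ± 0.23. SLC7A11 stood at 0.91 and 0.964 RPKM at 0 h and at 1.96 and 2.71 RPKM at 24 h, both samples above, with a change of 0.77 ± 0.34 (limma, adjusted p = 0.354). No member of the 41 passed in this comparison in limma (1.81% of features did, 0.672% upward and 1.14% downward). An unadjusted p under 0.05 was found for 8 members and for 1560 of the 12195 features. With the sample number as 1 added term over all samples, SLC16A5 passed (1.17, adjusted p = 0.0384), as did 2.98% of features in that fit. This comparison, the difference of the first-day changes and the changes from 24 to 48 h were added after the data were seen.

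Whether the first day differed between the arms was tested directly, as the change from 0 to 24 h in treated minus that in control samples. It was lower in treated papillae for 7 members and higher for 4, where 10.3% of features passed (6.47% lower and 3.85% higher). SLC1A4 (-1.77 ± 0.42, limma, adjusted p = 0.0134), SLC7A5 (-1.64 ± 0.37, adjusted p = 0.011), SLC38A1 (-1.38 ± 0.24, adjusted p = 0.00252), SLC6A6 (-1.30 ± 0.29, adjusted p = 0.00974) and SLC6A9 (-1.24 ± 0.33, adjusted p = 0.0273) led the first group, with SLC7A1 and SLC7A6. SLC16A1 (-1.37 ± 0.47, adjusted p = 0.0709) and SLC7A11 (-1.15 ± 0.49, adjusted p = 0.14) did not pass. SLC6A4, SLC16A6, SLC16A5 and SLC38A10 formed the second group and are described with their families.

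Leaving out single libraries gave 4 to 10 calls here, and 8 of the 11 were lost at least once. For SLC7A5 the value was -1.56 (adjusted p = 0.0516, limma) without the first control sample of 0 h and -1.28 (adjusted p = 0.0511) without the first of 24 h. SLC1A4 gave -1.62 and SLC6A6 -1.06 without the first treated sample of 0 h. SLC6A9 gave -0.89 and SLC7A1 -0.88 without the first treated sample of 24 h. The calls of SLC6A9 and SLC7A1 were each lost in 7 of the 8 fits that left out 1 library. That of SLC16A5 was lost in 6, SLC38A10 in 5, SLC7A6 in 4, SLC1A4 in 3, SLC7A5 in 2 and SLC6A6 in 1. With samples of the same number at each time treated as a pair, 17 members passed and 21.2% of features, SLC16A1 (adjusted p = 0.00964), SLC7A11 (adjusted p = 0.0268) and SLC7A3 (adjusted p = 0.0258) among them.

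**Figure D3:**
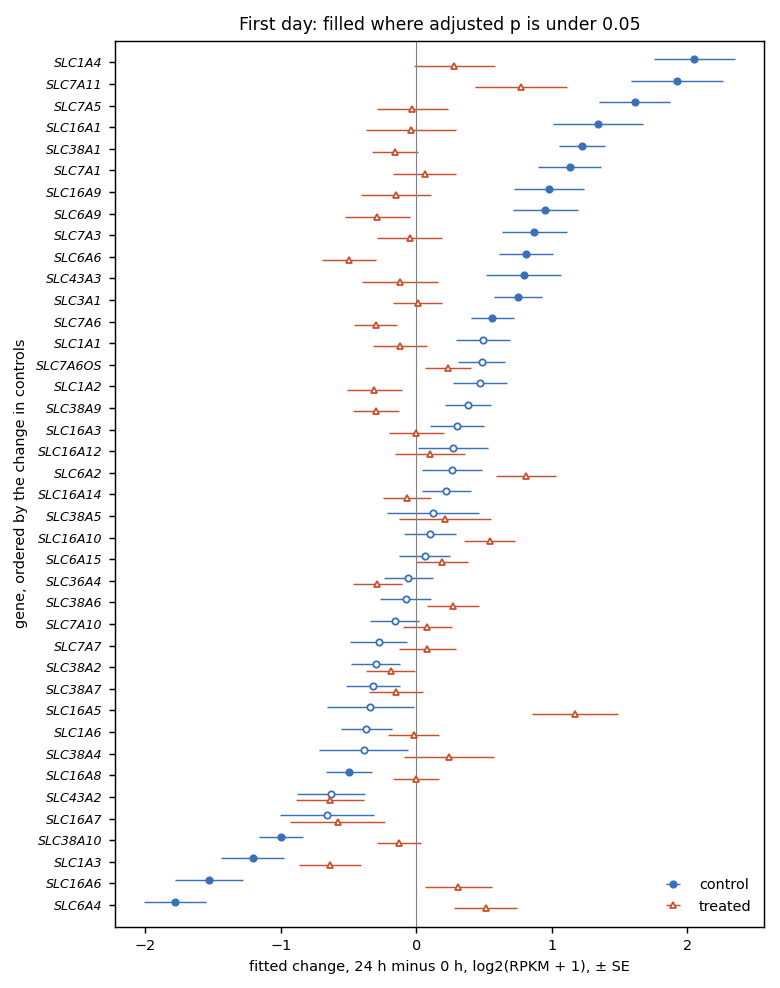
Fitted change from 0 to 24 h on the log2(RPKM + 1) scale with its standard error for 40 of the 41 tested genes, in controls (blue circles) and treated samples (red triangles), ordered by the change in controls. Filled symbols passed at an adjusted p under 0.05: 18 of those drawn in controls and 0 in treated samples.

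The levels at 24 h show the same separation between the arms, with the same control samples. For SLC7A5 the treated samples stood at 22.4 and 22 RPKM and the controls at 135 and 81.9, and the difference was -2.19 ± 0.26 (limma, adjusted p = 9.01e-06). SLC16A1, which carries lactate and pyruvate, had 24.7 and 24.2 RPKM in controls and 5.22 and 6.52 in treated samples (-1.89 ± 0.33, adjusted p = 0.000336). SLC6A6 had 65.5 and 60.7 RPKM in controls against 14.9 and 20 (-1.81 ± 0.20, adjusted p = 5.2e-06), and SLC1A4 47.6 and 27.9 against 9.87 and 9.68 (-1.80 ± 0.30, adjusted p = 0.000185). In none of these 4 genes did the arms overlap at 24 h.

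In total 18 members were lower and 3 higher in treated samples at 24 h, where 36.7% of features passed (18.3% lower and 18.4% higher), and the medians were -0.44 for members and 0.01 for features. Other falls were those of SLC7A11 (-1.37 ± 0.34), SLC7A1 (-1.22 ± 0.23), the glutamine transporter SLC38A5 (-1.20 ± 0.34), SLC38A1 (-1.09 ± 0.17) and SLC16A3 (-1.07 ± 0.20). SLC7A3 did not pass at 24 h (-0.15 ± 0.24), and its treated samples of 0 h, at 18.2 and 21.1 RPKM, already stood above the controls of 0 h (0.77 ± 0.24, limma, adjusted p = 0.0249). That 0 h difference was 0.62 (adjusted p = 0.183) without the first control sample. Of the 24 h calls, 9 were lost when 1 of the 4 libraries was left out, among them SLC38A5 (-1.03, adjusted p = 0.0807, without the second control sample) and SLC6A9 (-0.43, adjusted p = 0.217, without the first treated sample), and the other 4 with a value in this paragraph passed in each such fit. Hair cell markers were lower in treated samples for 15 of 16 genes at 24 h, and supporting cell markers higher for 7 and lower for 1 of 11.

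Treated papillae rose later. SLC7A5 reached 81.1 and 64.8 RPKM at 48 h, a change of 1.66 ± 0.26 from 24 h (limma, adjusted p = 0.00423), and SLC6A6 went from 14.9 and 20 to 36.3 and 33.6 RPKM, a change of 0.97 ± 0.20 (adjusted p = 0.024). In both genes the 48 h samples lay above the 24 h samples. They were the 2 members that passed in this interval, both upward, where 1.71% of features passed (1.58% upward). Without the first 48 h sample these changes were 1.50 (adjusted p = 0.0934) and 0.92 (adjusted p = 0.186), and without the first 24 h sample 1.68 (adjusted p = 0.0587) and 0.77 (adjusted p = 0.194). In controls SLC7A5 had 100 and 89.9 RPKM at 48 h, and from 24 to 48 h SLC16A5 rose and SLC1A3 fell while no other member passed (1.07% of features passed, 0.738% upward and 0.336% downward). Both control calls were lost whichever of the 4 libraries was left out, with adjusted p in limma of up to 0.287 for SLC16A5 and 0.288 for SLC1A3.

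At 48 h, 10 members were lower in treated samples and 4 higher (27.6% of features passed, 13.9% lower and 13.8% higher). SLC16A1 stood at 30 and 32.6 RPKM in controls and at 13 and 7.51 in treated samples (-1.56 ± 0.33, limma, adjusted p = 0.00249). SLC1A4 had 36.2 and 34.4 RPKM against 19.2 and 15.1 (-1.01 ± 0.30, adjusted p = 0.0179), without overlap, but the call was lost without the second treated sample (-0.84, adjusted p = 0.135). SLC43A3, which carries purine bases in mammals, had 12.4 and 15.4 RPKM against 6.47 and 4.83 (-1.17 ± 0.28, adjusted p = 0.00496), and without the second treated sample -0.99 (adjusted p = 0.0605).

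By 120 to 168 h the arms overlapped for the 13 genes of the first-day rise except SLC16A9, SLC3A1 and SLC7A6, which differed there (values below). SLC7A5 ranged from 151 to 212 RPKM (median 192) in the 5 control samples and from 111 to 251 RPKM (median 177) in the 6 treated ones, a difference of -0.11 ± 0.16. The differences were 0.15 ± 0.18 for SLC1A4, 0.00 ± 0.21 for SLC7A11, 0.15 ± 0.14 for SLC7A1, -0.05 ± 0.15 for SLC7A3, -0.05 ± 0.10 for SLC38A1, 0.17 ± 0.15 for SLC6A9, -0.24 ± 0.13 for SLC6A6 and -0.12 ± 0.21 for SLC16A1. None passed, which does not show equal levels, and neither does an overlap of ranges pooled over the window. SLC6A6 stood below the control mean of its time in 6 of 6 treated samples, SLC38A1 in 5 and SLC16A1 in 4. SLC6A9, SLC7A1 and SLC7A11 stood above it in 5 of 6 and SLC1A4 in 4, while SLC7A5 and SLC7A3 had 3 above and 3 below. The difference between late and early windows passed for SLC7A5 (0.93 ± 0.22, limma, adjusted p = 0.00411), SLC16A1 (1.20 ± 0.28, adjusted p = 0.00377), SLC1A4 (1.10 ± 0.25, adjusted p = 0.00316), SLC7A1, SLC6A6 and SLC38A1, within 12 members whose treated minus control difference was higher late and 6 for which it was lower (34.5% of features passed, 12.6% upward and 21.9% downward). Of these the call of SLC38A1 (0.40 ± 0.14) was lost in 13 of the 22 fits that left out 1 library, with 0.35 (adjusted p = 0.0812) without the first control sample of 48 h.

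In both arms more members rose than fell with time. From 0 to 48 h to 120 to 168 h, 20 members rose and 6 fell in controls (49% of features passed, 28.7% upward and 20.3% downward), and 22 rose and 6 fell in treated papillae (54.7% of features passed, 24.8% upward and 29.9% downward). SLC7A5 rose by 1.41 ± 0.16 in controls (limma, adjusted p = 2.55e-06) and 2.34 ± 0.15 in treated samples (adjusted p = 3.12e-09), SLC7A11 by 1.42 ± 0.21 and 1.91 ± 0.20, and SLC7A3 by 1.25 ± 0.15 and 1.02 ± 0.14. SLC6A15, a carrier of branched-chain amino acids and proline, rose by 1.38 ± 0.12 and 1.11 ± 0.11 from low levels (median 0.546 RPKM in early and 3.38 in late controls). Over the same windows 10 of 11 leukocyte markers rose in each arm (in treated samples the other one fell), and 7 of 10 mesenchymal markers in controls and 10 of 10 in treated samples.

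Genes of the amino acid response were read beside these transporters. Of a list of 32 genes made up of ATF4, kinases upstream of it and its known mammalian targets, with no member among them, 22 were in the table and all were tested. In controls 15 rose and none fell from 0 to 24 h (limma, median 0.85 against 0.00 over all features, of which 14.4% rose). They included asparagine synthetase ASNS, at 19.2 and 21.4 RPKM at 0 h and 126 and 144 RPKM at 24 h (2.67 ± 0.21, adjusted p = 2.12e-06), the serine synthesis enzymes PSPH (2.88 ± 0.26) and PHGDH (2.50 ± 0.42), and ATF4 itself (1.60 ± 0.20, adjusted p = 4.9e-05).

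In treated papillae ASNS stood at 21.5 RPKM in both samples at 0 h and at 25.3 and 28.2 at 24 h. The first-day change was lower in treated than in control samples for 11 of the 22 genes and higher for none (limma, 6.47% of features lower), ASNS (-2.37 ± 0.30, adjusted p = 0.000376) and ATF4 (-1.80 ± 0.28, adjusted p = 0.00136) among them. ATF4 differed in that its treated samples were already high at 0 h, at 549 and 559 RPKM against 218 and 246 in controls, while at 24 h they had 394 and 591 RPKM against 596 and 828. At 120 to 168 h 1 gene of the list was higher in treated samples and 1 lower, where 4.31% of all features were higher and 15.1% lower. ASNS did not pass there (0.12 ± 0.13). With samples paired by number 1 gene of the list was higher and 3 lower, in a fit where 26.7% of features passed. The list was chosen with earlier results of these data known, and no test of the list as a set was made.

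Of 25 tested genes of amino acid sensing at the lysosome, 6 were higher and 4 lower in treated samples at 0 to 48 h, where 27.6% of all features were higher and 23.5% lower. The kinase MTOR was higher (0.81 ± 0.09, limma, adjusted p = 1.84e-06), and FNIP2, a partner of folliculin, was lower (-1.06 ± 0.15, adjusted p = 1.72e-05). The lysosomal arginine sensor SLC38A9, the member that acts in this pathway, ranged from 1.92 to 3.99 RPKM over all samples and was lower at 24 h (-0.46 ± 0.17, limma, adjusted p = 0.0409), a call lost in 3 of the 4 fits that left out 1 library (-0.30, adjusted p = 0.278, without the first control sample).

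SLC1A3, the glial and supporting cell glutamate and aspartate transporter of mammals, fell from the early to the late window in controls (-1.06 ± 0.14) and in treated papillae (-2.27 ± 0.13), where it was still high at 48 h. Controls had 69.9 and 102 RPKM at 0 h, 40.5 and 31.7 at 24 h and 17.1 and 16.9 at 48 h, and treated samples 118 and 131, 59.4 and 106, and 143 and 127 RPKM. From 0 to 144 h every treated sample stood above every control sample of its time. At 168 h the order was the reverse, with 21.9 and 16.4 RPKM in controls and 14.8 and 14.9 in treated samples, but the difference did not pass. The difference was 0.56 ± 0.23 at 0 h (limma, adjusted p = 0.0801), 1.12 ± 0.23 at 24 h (adjusted p = 0.000963), 2.92 ± 0.23 at 48 h (adjusted p = 5.65e-08), 1.70 ± 0.28 at 72 h (adjusted p = 0.00049) and 1.88 ± 0.32 at 96 h (adjusted p = 0.00189), and -0.33 ± 0.23 at 168 h (adjusted p = 0.544).

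Of the members that passed over all times, SLC1A3 had the largest upward difference (1.09 ± 0.21, limma, adjusted p = 0.000269), and 13 of 15 treated samples stood above the control mean of their time. Its treated minus control difference was lower late than early by 1.22 on the log2 scale (-1.22 ± 0.19, adjusted p = 0.000183). Of the markers of supporting cells, 6 of 11 were higher in treated samples at 0 h, where SLC1A3 did not pass, and 9 of 11 at 48 h, with none lower. Of all features 14.6% and 13.8% were higher at these times. Among the same markers 2 were higher and 1 lower at 144 h (1.58% and 4.3% of features), and at 168 h none passed in limma. At 144 h SLC1A3 passed (0.81 ± 0.23, adjusted p = 0.0438), but not when any of the 4 libraries of that time was left out (adjusted p in limma of up to 0.173).

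The other glutamate transporters were low, and SLC1A1 and SLC1A6 were lower in treated samples in at least 1 window. SLC1A1, the neuronal and epithelial transporter EAAT3, ranged from 1.45 to 2.69 RPKM (median 2.07) in the 6 early controls and from 0.927 to 1.45 (median 1.15) in the 6 early treated samples, and the groups lay next to each other without overlap. It was lower in treated samples at 0 to 48 h (-0.49 ± 0.12, limma, adjusted p = 0.00225) and at 120 to 168 h (-0.53 ± 0.13, adjusted p = 0.0078), below the control mean of its time in 15 of 15 treated samples. SLC1A6, known from Purkinje cells as EAAT4, ranged from 2.9 to 4.46 RPKM (median 3.92) in late controls and from 1.38 to 2.58 (median 1.83) in late treated samples, without overlap (-0.77 ± 0.12, adjusted p = 0.000336), and did not pass at 0 to 48 h (-0.17 ± 0.11). SLC1A2, the main glutamate transporter of astrocytes, had 0.695 to 2.42 RPKM over all samples and did not pass in either window (-0.06 ± 0.11 and -0.06 ± 0.12). At 24 h it was lower (-0.52 ± 0.20, limma, adjusted p = 0.0481), a call lost in 3 of the 4 fits that left out 1 library (-0.36, adjusted p = 0.282, without the first control sample).

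The vesicular glutamate transporter SLC17A8 of hair cells had 14 to 30.9 RPKM (median 23.4) in the 6 early controls and 0 to 0.478 RPKM (median 0.155) in the 6 early treated samples, and in late samples 5.02 to 10.4 and 0.123 to 0.461 RPKM. The arms were far apart at both windows (-4.24 ± 0.12, limma, adjusted p = 3.4e-14, and -2.70 ± 0.13, adjusted p = 2.82e-10). Of 18 tested enzymes of glutamate, glutamine and glutathione, 4 were higher and 5 lower in treated samples at 0 to 48 h, close to the 51.1% of all features that passed there. Ornithine aminotransferase OAT (-1.74 ± 0.10, adjusted p = 2.86e-10) and the glutathione synthesis subunit GCLM (-0.63 ± 0.11, adjusted p = 0.000101) were among the lower ones, and glutamine synthetase GLUL did not pass (-0.33 ± 0.24). Of 9 tested transmitter receptors 5 were lower and 2 higher, with GRIA2, an AMPA receptor subunit, at -2.00 ± 0.11 (adjusted p = 1.36e-10). Among 13 tested amino acid carriers of other families 4 were lower and 3 higher, also near the share of all features, the last led by the mitochondrial ornithine carrier SLC25A15 (1.50 ± 0.13, adjusted p = 7.42e-08).

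Within the SLC38 family of neutral amino acid carriers, related genes went opposite ways. SLC38A2 had 121 and 110 RPKM in controls at 0 h and 230 and 170 in treated samples, and 87.8 and 99.2 against 150 and 199 RPKM at 24 h. The arms did not overlap at either time, and SLC38A2 was higher in treated samples by 0.78 ± 0.18 (limma, adjusted p = 0.00409) and 0.88 ± 0.18 (adjusted p = 0.000961). The 0 h difference was 0.56 (adjusted p = 0.0754) without the first treated sample. Over 0 to 48 h it was 0.63 ± 0.10 (adjusted p = 7.71e-05), with 6 of 6 treated samples above the control mean of their time, and at 120 to 168 h it did not pass (-0.20 ± 0.11). In mammals SLC38A2 is also raised by ATF4. At 0 h treated samples stood above the controls for SLC38A2 and for ATF4 (549 and 559 RPKM against 218 and 246). At 24 h they stood above the controls for SLC38A2 and below them for ATF4, ASNS and SLC7A5. Whether ATF4 had a part in these levels was not tested.

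SLC38A5, which carries glutamine, asparagine and histidine, had 15.1 to 24.7 RPKM (median 21.5) in early controls and 6.71 to 16 RPKM (median 8.2) in early treated samples. A single treated sample of 48 h, at 16 RPKM, reached into the control range. The difference was -1.11 ± 0.20 at 0 to 48 h (limma, adjusted p = 0.00016) and -0.48 ± 0.21 at 120 to 168 h (adjusted p = 0.117). SLC38A4, a carrier of neutral and cationic amino acids best known from liver and placenta, was apart late, with 5.91 to 10.6 RPKM (median 6.58) in controls and 1.62 to 5.61 (median 3.41) in treated samples and no overlap (-0.94 ± 0.21, adjusted p = 0.00448). Over all times SLC38A4 was lower by -0.76 ± 0.16 (adjusted p = 0.000405), below the control mean of its time in 13 of 15 treated samples. SLC38A10 had 39.8 and 43 RPKM at 0 h and 19.8 and 20.5 at 24 h in controls, a fall that passed (adjusted p = 0.00039), and 28.3 and 31.2 and then 24.7 and 29.7 RPKM in treated samples. Its first-day change differed between the arms (0.87 ± 0.23, adjusted p = 0.0243). This call was lost in 5 of the 8 fits that left out 1 library, with 0.81 without the first treated sample of 0 h.

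**Figure D4:**
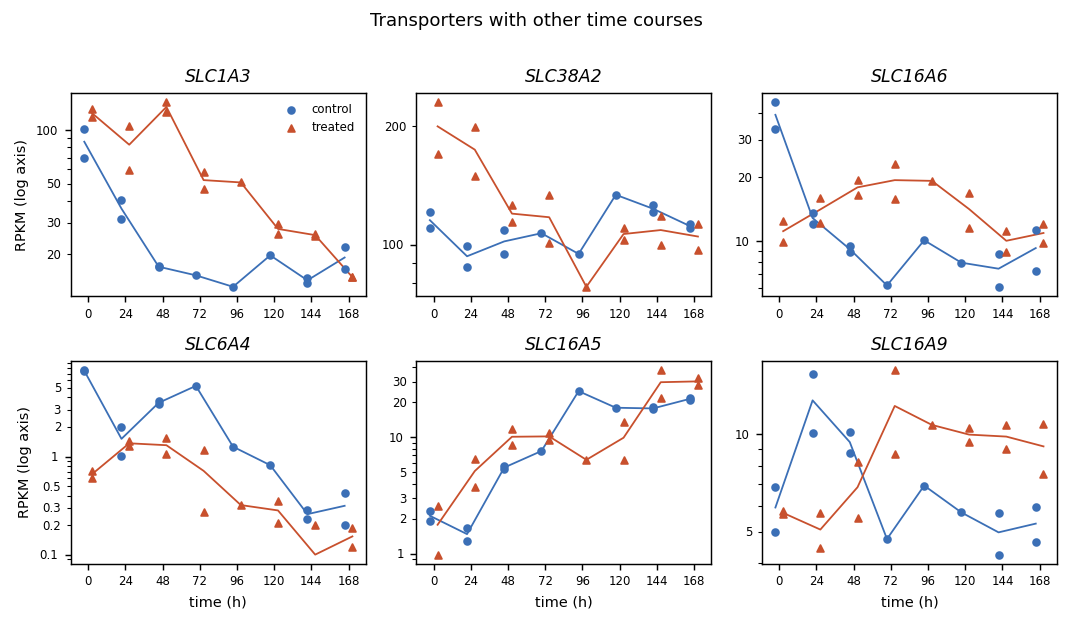
Time courses of 6 transporters with patterns of their own, in RPKM on a log axis that does not start at 0, against time in h. Points are single samples (control blue circles, treated red triangles) and lines join the means, and 1 treated SLC6A4 value of 0 at 144 h is not drawn. SLC1A3 had 143 and 127 RPKM in treated samples at 48 h and 17.1 and 16.9 in controls.

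Of 11 SLC16 members tested, 1 was higher and 5 lower in treated samples at 0 to 48 h, where 27.6% of all features were higher and 23.5% lower. SLC16A3 had 115 to 167 RPKM (median 130) in the 6 early controls and 62.3 to 105 RPKM (median 74.8) in the 6 early treated samples, without overlap. Its difference was -0.80 ± 0.12 early (limma, adjusted p = 2.77e-05) and 0.01 ± 0.13 late, which did not pass. SLC16A1 had 7.09 to 32.6 RPKM (median 24.4) in early controls and 5.22 to 13 (median 6.53) in early treated samples (-1.32 ± 0.19, adjusted p = 2.54e-05), with an overlap that came from the 0 h controls. SLC16A8, the carrier MCT3 known from retinal pigment epithelium, was low, at 0.432 to 1.67 RPKM in early controls and 0.197 to 0.407 in early treated samples (-0.72 ± 0.10, adjusted p = 1.3e-05).

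A further list held chaperones of lactate carriers, lactate dehydrogenases, pyruvate dehydrogenase kinases, glucose transporters and enzymes of glycolysis. Of its 13 tested genes, 9 were lower and 2 higher at 0 to 48 h, where 23.5% of features were lower and 27.6% higher. At 120 to 168 h 1 was higher and 0 lower in limma, where 4.31% of features were higher and 15.1% lower. With samples paired by number 1 was higher and 1 lower, and 26.7% of features passed. Lactate dehydrogenase LDHA had 992 to 2326 RPKM (median 1909) in early controls and 301 to 645 RPKM (median 392) in early treated samples, without overlap (-2.02 ± 0.16, adjusted p = 2.39e-08). Basigin BSG, the chaperone that brings SLC16A1 and SLC16A3 to the membrane, had 624 to 912 RPKM (median 803) against 341 to 470 (median 413), also without overlap (-0.91 ± 0.13, adjusted p = 1.66e-05). Late, LDHA (-0.22 ± 0.17) and BSG (-0.30 ± 0.14) did not pass.

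Other SLC16 genes changed order with time. SLC16A6, a ketone body carrier in zebrafish, had 44.8 and 33.6 RPKM in controls at 0 h and 12.4 and 9.89 in treated samples (-1.72 ± 0.25, limma, adjusted p = 8.39e-05). Controls then fell to 13.6 and 12.1 RPKM at 24 h and 8.91 and 9.45 at 48 h, while treated samples had 12.2 and 16 and then 19.3 and 16.5 RPKM. The order of the arms was reversed by 48 h (0.89 ± 0.25, adjusted p = 0.0126) and at 72 h (1.47 ± 0.30, adjusted p = 0.00337), when the single control had 6.2 RPKM and the treated samples 23 and 15.7. The first-day change differed between the arms by 1.84 ± 0.35 (adjusted p = 0.00396). The 48 h difference was 0.78 (adjusted p = 0.0947) without the first treated sample.

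SLC16A9, which carries carnitine in humans, crossed the other way. At 24 h controls had 15.4 and 10.1 RPKM and treated samples 5.7 and 4.44 (-1.16 ± 0.26, limma, adjusted p = 0.00252). At 120 to 168 h controls had 4.24 to 5.95 RPKM (median 5.7) and treated samples 7.56 to 10.8 (median 9.98), and the groups did not overlap (0.75 ± 0.17, adjusted p = 0.00446). The late minus early difference was 1.29 ± 0.23 (adjusted p = 0.000423), the largest upward of the 41 members. SLC16A12, which carries creatine in humans, was lower in late treated samples (0.295 to 2 RPKM, median 1.26) than in late controls (1.78 to 2.41 RPKM, median 2.11), with some overlap, by -0.54 ± 0.16 (adjusted p = 0.0247), and without the second treated sample of 120 h by -0.43 (adjusted p = 0.0731).

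SLC16A5 rose with time in both arms. It had 1.28 to 5.62 RPKM (median 2.12) in early and 17.4 to 21.9 RPKM (median 18.1) in late controls, and 0.979 to 11.7 (median 5.13) and 6.37 to 37.8 RPKM (median 25) in treated samples, and only the treated windows overlapped. The rises were 2.44 ± 0.20 (limma, adjusted p = 4.68e-08) and 1.93 ± 0.18 (adjusted p = 1.54e-07). The first-day change was higher in treated than in control papillae by 1.50, and by 1.08 without the first treated sample of 0 h. The call was lost in 6 of the 8 fits that left out 1 library. The difference of 1.50 did not pass with no filter (adjusted p = 0.0728) or with only the samples compared (adjusted p = 0.0824). At 24 h treated samples were ahead, with 3.71 and 6.55 RPKM against 1.66 and 1.28 (1.28 ± 0.32, adjusted p = 0.0047, and 0.94, adjusted p = 0.074, without the second treated sample). At 96 h the single control had 25 RPKM and the single treated sample 6.41 (-1.81 ± 0.45, adjusted p = 0.0296), a difference with no replicate on either side that did not pass with a pseudocount of 0.1 (adjusted p = 0.0627).

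The amine transporters of the SLC6 family differed early. SLC6A4, the serotonin transporter, had 7.55 and 7.38 RPKM in controls at 0 h and 0.604 and 0.72 in treated samples (-2.35 ± 0.23, limma, adjusted p = 9.06e-07). Controls fell to 2.01 and 1.02 RPKM at 24 h, next to 1.45 and 1.28 in treated samples, and had 3.64 and 3.41 at 48 h and 5.24 in the single sample at 72 h, against 1.07 and 1.54 and then 0.271 and 1.16 RPKM. The arms overlapped at 24 h and stood apart at 0, 48 and 72 h (at 72 h -1.91 ± 0.28, adjusted p = 0.000183), and the 48 h call (-0.98 ± 0.23) was lost without the first treated sample (-0.83, adjusted p = 0.0545). The first-day change differed by 2.29 ± 0.32 (adjusted p = 0.000793). By 120 to 168 h controls had 0.203 to 0.817 RPKM and treated samples 0 to 0.355. The noradrenaline transporter SLC6A2 was higher in treated samples at 48 h, with 4.8 and 5.43 RPKM against 2.38 and 1.8 (0.99 ± 0.22, adjusted p = 0.00295).

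Both SLC43 genes and some exchangers of cationic amino acids complete the set. SLC43A2, a sodium-independent carrier of large neutral amino acids, had 7.62 to 15.1 RPKM (median 11.8) in early controls and 3.79 to 7.83 (median 5.89) in early treated samples, and the ranges met between 7.62 and 7.83. It was lower by -0.84 ± 0.14 at 0 to 48 h (limma, adjusted p = 0.000131) and by -0.65 ± 0.10 over all times (adjusted p = 9.92e-06), below the control mean of its time in 14 of 15 treated samples. SLC7A6 was lower both at 0 to 48 h (-0.41 ± 0.09, adjusted p = 0.00125) and at 120 to 168 h (-0.48 ± 0.10, adjusted p = 0.00261). SLC3A1 went from 0.402 to 0.632 RPKM in late controls to 0.748 to 1.26 in late treated samples, without overlap. Its late call (0.39 ± 0.11, adjusted p = 0.0236) was lost without the second treated sample of 120 h (0.33). It was also lost with samples paired by number (0.33), but that fit drops the same sample, which has no control partner, and is not a separate check.

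Over all times the lower members were led by SLC6A4 (-0.85 ± 0.18, limma, adjusted p = 0.000801), SLC38A4, SLC16A1 (-0.71 ± 0.18, adjusted p = 0.00305), SLC43A2, SLC38A5 (-0.62 ± 0.16, adjusted p = 0.00347) and SLC1A6 (-0.48 ± 0.10, adjusted p = 0.000376). SLC1A1 had a like difference (-0.48 ± 0.08, adjusted p = 8.85e-05). The 3 higher ones were SLC1A3, SLC7A10 (0.24 ± 0.10, adjusted p = 0.0483) and SLC7A6OS (0.23 ± 0.07, adjusted p = 0.0136). Without 72, 96 and 120 h, the times with 1 control each, 6 of the 20 calls over all times were lost. They were those of SLC16A7, SLC38A1, SLC43A3, SLC7A5, SLC7A10 (0.18, limma, adjusted p = 0.203) and SLC7A6OS (0.19, adjusted p = 0.0799). SLC7A5 passed (-0.48 ± 0.18, adjusted p = 0.0357), but with samples of the same number at a time paired it did not (-0.49, adjusted p = 0.0772), nor did SLC6A6 (adjusted p = 0.0597), SLC16A3 (adjusted p = 0.106), SLC38A1 (adjusted p = 0.0812) and SLC7A10 (adjusted p = 0.0874). SLC7A5, SLC16A3, SLC38A1 and SLC7A10 also lost this call in fits without a single library: without the second treated sample of 24 h SLC7A5 gave -0.39 (adjusted p = 0.0716).

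Fewer members passed at the later single times. At 0 h 2 members were higher and 8 lower (25.5% of features passed, 14.6% higher and 10.9% lower). At 72 h 4 were higher and 2 lower (13.8% of features passed, 6.25% higher and 7.5% lower), and at 96 h 1 and 1 (3.93%, with 1.85% higher and 2.07% lower). At 120 h 0 were higher and 1 lower (2.55%, with 0.271% higher and 2.28% lower), and at 144 h 1 and 2 (5.88%, with 1.58% higher and 4.3% lower). At 168 h none of the 41 passed in limma (1.16% of features did, 0.123% higher and 1.03% lower). There 7 members and 1750 of the 12195 features had an unadjusted p under 0.05. With samples paired by number, 5 members passed at 96 h (9.21% of features in that fit), 5 at 120 h (5.98%), 6 at 144 h (14.8%) and 3 at 168 h (5.03%). No pair exists at 96 and 120 h, however. The 96 h differences stayed the same, and only the spread taken from other times changed. The second treated sample of 120 h, with no control of its number, dropped out of the difference. SLC7A5 was among the members counted at 120 h, where the first treated sample had 111 RPKM and the single control 212 (-0.94). With the second treated sample included, at 170 RPKM, the main fit gave -0.63 and SLC7A5 did not pass. At 72, 96 and 120 h there was 1 control sample each.

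**Figure D5:**
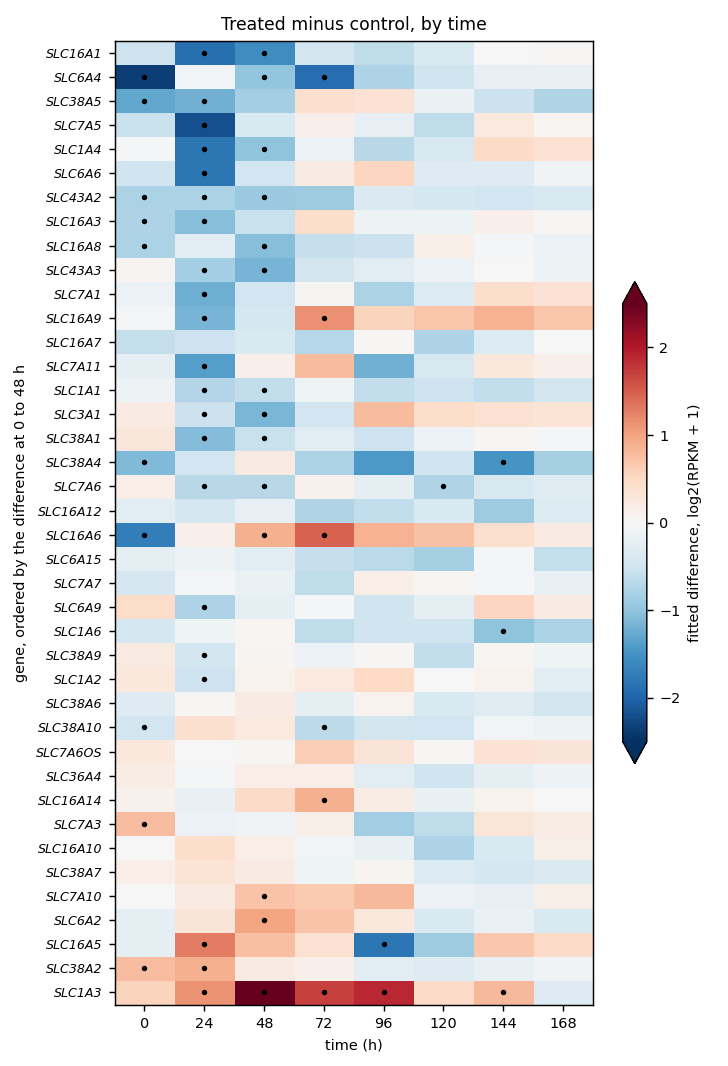
Fitted treated minus control difference on the log2(RPKM + 1) scale at each of the 8 times (columns, in h) for 40 of the 41 tested genes (rows, ordered by the difference at 0 to 48 h), blue lower and red higher in treated samples, with colours saturating at the ends of the scale. Dots mark differences with an adjusted p under 0.05, of which there were 21 at 24 h and 0 at 168 h.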

How the data were processed

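RNA of whole basilar papillae was sequenced. The authors deposited 1 table of RPKM values, with the number of alignments per library (median 19.85 M). Per the submitters' processing notes TopHat 1.4.0 and Partek 6.6 were used, with no role given, and the sources used here name no genome build, annotation or strand, and positions are left out. Counts per gene were not used here, so no counting intervals are given. Of 32 columns 28 matched a sample by name. The other 4, headed as second samples of the 72, 96 and 120 h controls and the 96 h treated group, matched no sample and were not used, so these groups have 1 sample here.

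Sample titles gave the groups. A feature was kept if 2 or more samples reached 1 RPKM. The model on log2(RPKM + 1) came from limma 3.58.1 (R 4.3.3), with trended eBayes moderation and two-sided p-values, and p-values were adjusted over all 12195 features by Benjamini-Hochberg. The comparison over all times used an additive model of treatment plus time, with 19 degrees of freedom left. Every other comparison was a contrast of the 16 group means, with 12 left, in which groups with 1 sample are assumed to vary like the rest. The fits were tested on simulated data with differences set into some genes, 2-fold on the scale of RPKM + 1. In RPKM these are more than 2-fold, most so for genes of low level. These passed in 95% to 98% of such genes over all times and in the 2 treated minus control windows. At 72, 96 and 120 h 38%, 9% and 39% passed, and at the other single times 55% to 66%.

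Members and gene lists were chosen with earlier results of these data known. Named genes are the largest rises and falls among members that passed (6 each way over all times, 4 in windows and changes with time, 2 at single times, with a mean of at least 1 RPKM in an arm), with a set of members followed in any case. SLC3A2, SLC1A5 and other members without a row were not analysed here. The labels do not say whether equal sample numbers mark pairs, and the main fits did not use the numbers. Differences between samples 1 and 2 correlated between the arms at 0.31, 0.29, 0.11, 0.48 and 0.41 at 0, 24, 48, 144 and 168 h. The settings varied were the pseudocount (0.1), the filter (none), the trend (none), rescaling by median-of-ratios size factors, a replicate block, only the samples compared, other windows, and leaving out each library. RefSeq symbols were found for 54 of the 55 members. Results of some members are not reported here, and the counts include them.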

Additional observations from a re-analysis of the deposited data

Results flagged for a closer look

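For 18 members the treated minus control difference was not the same at 120 to 168 h and at 0 to 48 h, by a test of the change in the difference (limma, adjusted p under 0.05). On the log2(RPKM + 1) scale it was lower late for SLC1A3 (-1.22), SLC38A2 (-0.83), SLC6A2 (-0.67), SLC38A7 (-0.62), SLC1A6 (-0.60) and SLC16A10 (-0.53). It was higher late for SLC16A9 (1.29), SLC16A1 (1.20), SLC1A4 (1.10), SLC7A5 (0.93), SLC3A1 (0.88), SLC6A4 (0.83), SLC16A3 (0.81), SLC7A1 (0.77), SLC16A8 (0.70), SLC16A6 (0.69), SLC6A6 (0.68) and SLC38A1 (0.40). With a pseudocount of 0.1 the value of SLC6A4, a gene of low level in late samples of both arms, was 0.59 and did not pass (limma, adjusted p = 0.358). The late difference itself was upward for SLC16A9, SLC3A1 and SLC16A6, and that of SLC16A6 did not pass without the second control sample of 168 h (0.36, adjusted p = 0.127 in limma), without 120 h (0.32, adjusted p = 0.241), with no filter (adjusted p = 0.069) or with only the samples compared (adjusted p = 0.103), and that of SLC3A1 did not pass without the second treated sample of 120 h (0.33, adjusted p = 0.0663).

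For 11 members the change from 0 to 24 h was not the same in treated and control papillae, by the same kind of test. It was lower in treated papillae for SLC1A4 (-1.77), SLC7A5 (-1.64), SLC38A1 (-1.38), SLC6A6 (-1.30), SLC6A9 (-1.24), SLC7A1 (-1.07) and SLC7A6 (-0.85). It was higher for SLC38A10 (0.87), SLC16A5 (1.50), SLC16A6 (1.84) and SLC6A4 (2.29), of which the latter 2 and SLC38A10 fell in controls over that day. The 2 sets of values share the samples of 0 and 24 h. With no filter the first-day differences of SLC16A5 (limma, adjusted p = 0.0728) and SLC7A1 (adjusted p = 0.0638) did not pass. With only the samples compared, those of SLC16A5 (adjusted p = 0.0824), SLC6A9 (adjusted p = 0.0526) and SLC7A6 (adjusted p = 0.0861) did not.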

How the results depend on the processing

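Of 250 counts of members under alternative settings 207 stayed within 1.5 times, and of 3600 values of members that passed 335 no longer passed and 0 changed sign. The cause was not tested in any case. At 120 to 168 h (11 members) 6 passed without 120 h and 7 with only the samples compared in the fit. With a pseudocount of 0.1, 1 passed at 96 h, 0 at 120 h and 1 for the treated change from 0 to 24 h. Without the trend 2 passed at 120 h and 1 at 168 h, and with rescaling 0 at 120 h and 1 for the treated first day. With only the samples compared, 1 passed for treated and 0 for controls from 24 to 48 h, and with no filter 1 for controls.

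With the replicate block, which treats equal sample numbers at a time as pairs, 5 members passed at 96 h, 5 at 120 h, 6 at 144 h, 3 at 168 h and 17 for the first-day difference. No such pair exists at 72, 96 and 120 h. There the second treated samples of 72 and 120 h drop out of the differences, also in the window of 120 to 168 h and over all times. The 96 h differences are unchanged by the block, and only the spread taken from other times differs. For changes within an arm the block was 1 sample-number term over all samples, and 1 member passed for the treated first day. Over both ways of setting the block it gained 43 calls of members and lost 10. Among those lost and not given above were SLC38A7 at 120 to 168 h (-0.40, limma, adjusted p = 0.0536) and SLC16A14 at 72 h (0.78, adjusted p = 0.0608), and among those gained SLC7A5 at 0 h (-0.55, adjusted p = 0.0132). It moved no other count of members by more than 1.5 times.

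Leaving out 1 library at a time gave 16 to 21 members over all times, 19 to 22 at 0 to 48 h, 7 to 12 at 120 to 168 h, 17 to 20 for the difference of these, 25 to 27 and 27 to 29 for late minus early in controls and treated samples, and 14 to 16 for the first day in controls. It gave 5 to 7 at 0 h, 15 to 17 at 24 h, 9 to 12 at 48 h, 5 at 72 h, 0 at 120 h, 0 to 3 at 144 h and 0 to 1 at 168 h. For the changes added later it gave 0 to 1 (treated first day), 4 to 10 (difference of the first day), 0 to 3 (treated, 24 to 48 h) and 0 (controls, 24 to 48 h). At 96 h each arm had 1 sample, and none could be left out.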
